A study of Mus musculus with 2 samples.

Results

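The growth hormone and IGF axis was followed through 10 genes of the single-cell matrix, Igf1, Igfbp1, Igfbp2, Igfbp3, Igfbp4, Igfals, Ghr, Prlr, Socs2 and Stat5b, chosen by gene symbol out of 32285 genes. All 10 symbols were present once each. Their values were read in hepatocyte-like cells, split by depth, and in the other cell classes that marker genes could separate.

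Growth hormone from the pituitary binds its receptor on hepatocytes, the receptor-bound kinase JAK2 phosphorylates STAT5B, and STAT5B switches on Igf1 and, as negative feedback, genes of the SOCS family. The liver is the main source of circulating IGF1, which travels bound to IGF binding proteins and, in the largest complex, to the acid-labile subunit encoded by Igfals. In rodents the timing of growth hormone pulses differs between the sexes and sets apart male and female patterns of liver genes.

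The study examined loss of the transcription factor C/EBPα in hepatocytes under a high-fat, high-cholesterol and high-fructose diet (HFCFD). Per the labels, 1 liver sample was a Cebp KO and 1 a Cebp WT, and both came from mice fed 40% HFCFD for 2 weeks. By the study's methods the mice were male, the knockout joined the Cebpa fl/fl alleles to Cre under the albumin promoter, which is active in hepatocytes, and the controls were Cebpa fl/fl mice. Livers were perfused and digested, the cells went through a 35% Percoll step, and droplet libraries were made with 10x Genomics 3' chemistry, so that reads tag transcript 3' ends and do not show which start site or splice form was used.

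The deposited table was a single matrix with 32316 barcodes and 112403889 unique molecular identifiers (UMIs, each marking 1 captured transcript), and each barcode ended in 1 of 2 suffixes. The labels do not say which sample a suffix stands for, so the libraries with suffix 1 and suffix 2 were treated as unassigned, and no value below is given to a genotype. There is 1 library per suffix and therefore no replicate check, no test and no p-value. The library with suffix 1 held 60048646 UMIs in 17313 barcodes, of which 11617 (67.1%) passed the filters of at least 500 UMIs, at least 200 genes and at most 25% mitochondrial UMIs. The library with suffix 2 held 52355243 UMIs in 15003 barcodes, of which 6088 (40.6%) passed, and its median mitochondrial share before filtering was 41.3%, against 4.07% with suffix 1. The libraries shared 81 barcode sequences, 34 of which passed in both. Cebpa itself stood at 1.30 counts per 1000000 UMIs (CPM) with suffix 1 and at 109.5 CPM with suffix 2 in hepatocyte-like cells of at least 5000 UMIs.

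Hepatocyte-like cells were those with at least 8% of their UMIs from 12 hepatocyte markers and no pass at the gate of any other class. Those with at least 5000 UMIs, called deep, numbered 640 with suffix 1 and 517 with suffix 2, with median depths of 24303 and 13074 UMIs and median mitochondrial shares of 15.9% and 15.5%. Shallow hepatocyte-like droplets, with fewer UMIs, numbered 8635 and 3341 and had medians of 1138 and 1185 UMIs. The T-like and B-like cells (690 and 616) served as the level that free RNA gives in droplets without a hepatocyte, since Alb UMIs were found in them as well. For Socs2 and Stat5b they gave no such level. T-like cells held 62.5 and 79.5 CPM of Socs2, against 1.90 and 0 CPM in erythroid-like cells. For Stat5b the values were 124 and 113 CPM against 2.85 and 0 CPM. Levels are CPM over all cells of a class taken as a sum, and the ranges in parentheses are exact Poisson 95% intervals for levels and exact (Clopper-Pearson) 95% intervals for ratios and shares. Such intervals hold counting error only and say nothing of the spread between animals. The 10 genes are compared between classes and libraries, not with one another.

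Igf1 encodes the hormone of the axis and lies at chr10:87858265-87937042 on the + strand of GRCm38, with Igf1os annotated on the other strand. In deep hepatocyte-like cells Igf1 reached 912 CPM (897 to 928) with suffix 1 against 972 CPM (951 to 995) with suffix 2. The intervals did not overlap, but the level with suffix 1 was 0.938 times that with suffix 2 (0.912 to 0.965), a small difference. Igf1 was found in nearly every such cell, in 98.9% with suffix 1 and 99.8% with suffix 2, and the central 80% of cells spanned 402 to 1310.4 CPM and 489.8 to 1403 CPM.

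T-like and B-like cells together carried 137 CPM of Igf1 with suffix 1 and 138 CPM with suffix 2. Deep hepatocyte-like cells were therefore 6.64 times (6.06 to 7.29) and 7.02 times (6.34 to 7.80) above that background. After each cell was thinned to 1000 UMIs, an Igf1 UMI was seen in 55.0% and 62.5% of deep hepatocyte-like cells and in 12.1% and 15.2% of T-like cells, whose median depths before thinning were 4666 and 4249 UMIs.

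**Figure D1:**
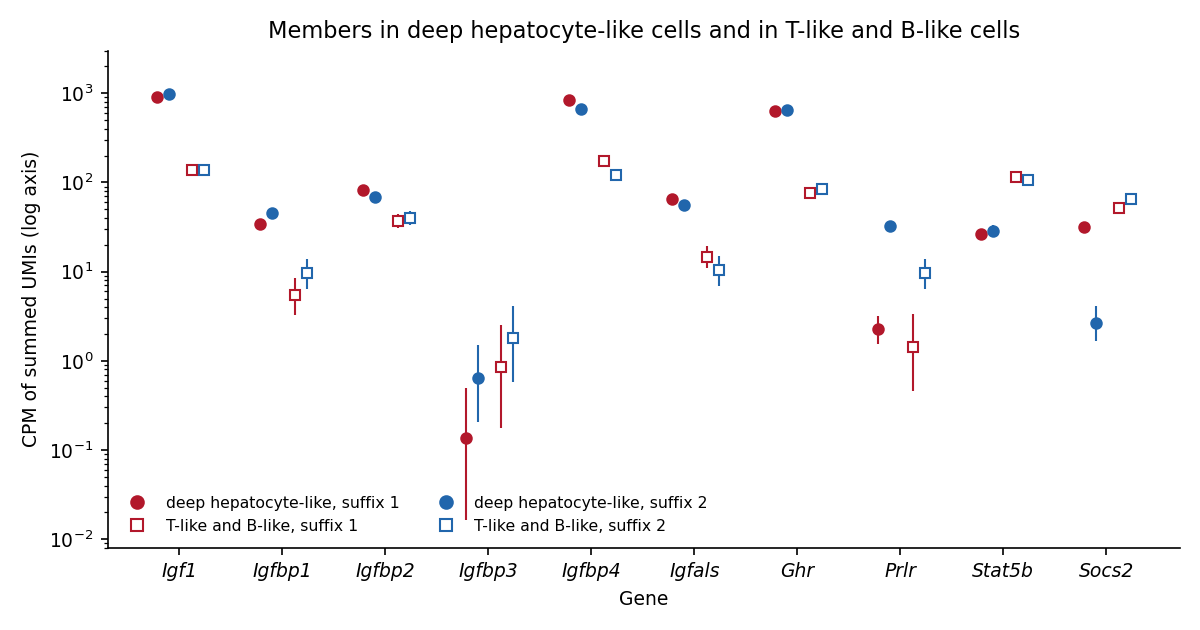
Levels of the 10 genes in deep hepatocyte-like cells (filled circles) and in T-like and B-like cells (open squares), in CPM on a log axis, with suffix 1 in red and suffix 2 in blue and exact Poisson 95% intervals as bars. Igf1, Igfbp4 and Ghr lie far above the T-like and B-like level in both libraries, Stat5b lies below it, and Socs2 and Prlr separate the libraries.

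Kupffer or macrophage-like cells (281 and 440) held a second, smaller pool of Igf1. Their level was 638 CPM (608 to 669) with suffix 1 against 667 CPM (639 to 696) with suffix 2, or 6.06 and 4.80 UMIs per cell. That was 4.64 times (4.19 to 5.15) and 4.82 times (4.32 to 5.38) the T-like and B-like level, and the libraries' intervals overlapped. Relative to Alb, the albumin transcript that hepatocytes make in bulk, the classes differed, since per 1000 Alb UMIs the Kupffer or macrophage-like cells held 81.1 and 71.7 Igf1 UMIs, deep hepatocyte-like cells 24.1 and 23.3, and T-like cells 14.0 and 12.6. Of all Igf1 UMIs in kept barcodes, deep hepatocyte-like cells held 52.0% and 47.2% and Kupffer or macrophage-like cells 6.62% and 13.1%. Of the 10 genes, 7 and 8 had enough UMIs for the count of calls in this class, and Igf1 alone was called higher than in T-like and B-like cells in each library, beside 19.9% and 20.6% of all genes tested. Socs2 alone was called lower, beside 15% and 16.1%. A call, here and below, is a level at least 2-fold apart with Poisson intervals that do not overlap, among genes with at least 50 UMIs over both sides.

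Endothelial-like, T-like, B-like and erythroid-like cells stayed between 112 and 166 CPM of Igf1 in both libraries. Neutrophil-like cells read higher, at 325 CPM (264 to 397) and 352 CPM (230.2 to 516), on 97 and 26 UMIs, and per 1000 Alb UMIs that was 22.1 and 21.4, near the hepatocyte value. Igf1 in stellate or fibroblast-like cells was 348 CPM (215 to 532) with suffix 1 against 149.7 CPM (79.7 to 256) with suffix 2, from 21 and 13 UMIs, and these intervals overlapped.

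Igfbp1 (chr11:7197782-7202546, + strand) encodes a binding protein that insulin represses in liver. It stood at 34.4 CPM (31.4 to 37.5) with suffix 1 against 45.6 CPM (41.0 to 50.6) with suffix 2 in deep hepatocyte-like cells. The level was 1.33 times higher (1.16 to 1.52) with suffix 2, with intervals that did not overlap, and under 2-fold. The T-like and B-like level was 5.44 and 9.64 CPM, so the hepatocyte level was 6.32 times (4.0 to 10.6) and 4.74 times (3.20 to 7.29) above it.

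Most deep cells held no Igfbp1 UMI. Only 28.8% (25.3 to 32.4) of deep hepatocyte-like cells with suffix 1 and 31.9% (27.9 to 36.1) with suffix 2 held any Igfbp1 UMI, although some cells held up to 19 and 14. The 64 and 51 cells with the most Igfbp1 UMIs carried 69.8% and 64.0% of them, a share that sparse counts and unequal depth raise. The 64 deepest cells with suffix 1 held 19.1% of all UMIs.

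Igfbp2 (chr1:72824503-72852474, + strand) encodes a binding protein made by fetal and adult liver. Its level in deep hepatocyte-like cells was 81.8 CPM (77.3 to 86.6) with suffix 1 against 69.2 CPM (63.5 to 75.3) with suffix 2. The ratio of suffix 1 to suffix 2 was 1.18 (1.07 to 1.31), below 2-fold. Igfbp2 ran against the depth of the cells in both libraries, with 137.9 and 145 CPM in shallow droplets, so that the deep level was 0.593 times (0.550 to 0.639) and 0.476 times (0.425 to 0.533) the shallow one. Over 5 depth classes, from 500 UMIs to 20000 UMIs and more, Igfbp2 went from 181 to 79.1 CPM with suffix 1 and from 183 to 61.8 CPM with suffix 2, each class lower than the one before. Counted per barcode, however, shallow droplets held 0.193 and 0.215 Igfbp2 UMIs, near the 0.187 and 0.183 of T-like and B-like cells, and those of 500 to 1000 UMIs 0.148 and 0.134, so the shallow level did not stand clearly above free RNA. T-like and B-like cells held 36.9 and 40.3 CPM, which put deep hepatocyte-like cells 2.22 times (1.85 to 2.68) and 1.72 times (1.40 to 2.12) above them. Igfbp2 thus passed the 2-fold limit over the background with suffix 1 and missed it with suffix 2, and the difference between those ratios was not tested.

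Igfbp3 (chr11:7206086-7213923, - strand), which encodes the main carrier of IGF1 in blood, was all but missing from deep hepatocyte-like cells. Deep cells held 2 Igfbp3 UMIs with suffix 1 (0.14 CPM) and 5 with suffix 2 (0.64 CPM). The gene had its highest level in stellate or fibroblast-like cells, at 348 CPM (215 to 532) from 21 UMIs in 21 cells and 403 CPM (281 to 560) from 35 UMIs in 40 cells. T-like and B-like cells held 0.86 and 1.78 CPM, from 3 and 5 UMIs, and the stellate or fibroblast-like level was 405 times (121 to 2121) and 226 times (88.1 to 738) as high. With fewer than 50 UMIs over both sides Igfbp3 was outside the count of calls. The libraries' intervals in this class overlapped. The class held 14.2% and 30.2% of all Igfbp3 UMIs, while shallow hepatocyte-like droplets held 46 and 28 UMIs (31.1% and 24.1%), at 3.80 and 5.67 CPM. Kupffer or macrophage-like cells held 14 and 21 UMIs, and their 5.24 and 6.64 CPM were 6.10 times (1.70 to 33.1) and 3.72 times (1.36 to 12.6) the T-like and B-like level.

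The stellate or fibroblast-like class was small and shallow, with medians of 2517 and 2017 UMIs. All 10 of its markers were above 2 times the median over classes, and Dcn, a proteoglycan gene of mesenchymal cells, reached 4588 and 3960.2 CPM. Col1a1, however, had 0 UMIs with suffix 1 and 8 with suffix 2, its leading genes included Prkg1, Ank3 and Reln, and its median Malat1 share was 5.04% and 4.77%, against 0.068% in deep hepatocyte-like cells with suffix 1. Malat1 is a nuclear RNA. Outside this class the mixed-marker barcodes with suffix 1 held 57 Igfbp3 UMIs (23.2 CPM), against 9 UMIs (3.29 CPM) with suffix 2.

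Igfbp4 (chr11:99041244-99054392, + strand) encodes a binding protein that holds IGF1 away from its receptor until it is cleaved. It was at 846 CPM (831 to 861) with suffix 1 against 673 CPM (655 to 691) with suffix 2 in deep hepatocyte-like cells. The level with suffix 1 was 1.26 times higher (1.22 to 1.30), with intervals well apart but under 2-fold. Endothelial-like cells (108 and 125) held 811 CPM (740.4 to 888) and 745 CPM (676 to 818), close to the hepatocyte level. Endothelial-like cells were 4.70 times (4.16 to 5.31) and 6.10 times (5.28 to 7.05) above T-like and B-like cells, which held 173 and 122 CPM, and 84.4 and 64.0 Igfbp4 UMIs per 1000 Alb UMIs, against 22.4 and 16.1 in deep hepatocyte-like cells. Cholangiocyte-like cells (32 and 16) held 371 CPM (316 to 433) with suffix 1 against 81.8 CPM (42.2 to 143) with suffix 2, intervals that did not overlap.

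Igfals (chr17:24865997-24882010, + strand), the gene of the acid-labile subunit and a known growth hormone target, was enriched in hepatocyte-like cells of both libraries. Its level in deep hepatocyte-like cells was 65.5 CPM (61.4 to 69.7) with suffix 1 against 55.5 CPM (50.4 to 60.9) with suffix 2, a ratio of 1.18 (1.05 to 1.33). It stood 4.48 times (3.38 to 6.07) and 5.36 times (3.68 to 8.10) above T-like and B-like cells, at 14.6 and 10.4 CPM. Kupffer or macrophage-like cells held 8.99 and 10.1 CPM, at or below that background, and the 66.3 CPM of stellate or fibroblast-like cells with suffix 1 rested on 4 UMIs, beside 0 with suffix 2.

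**Figure D2:**
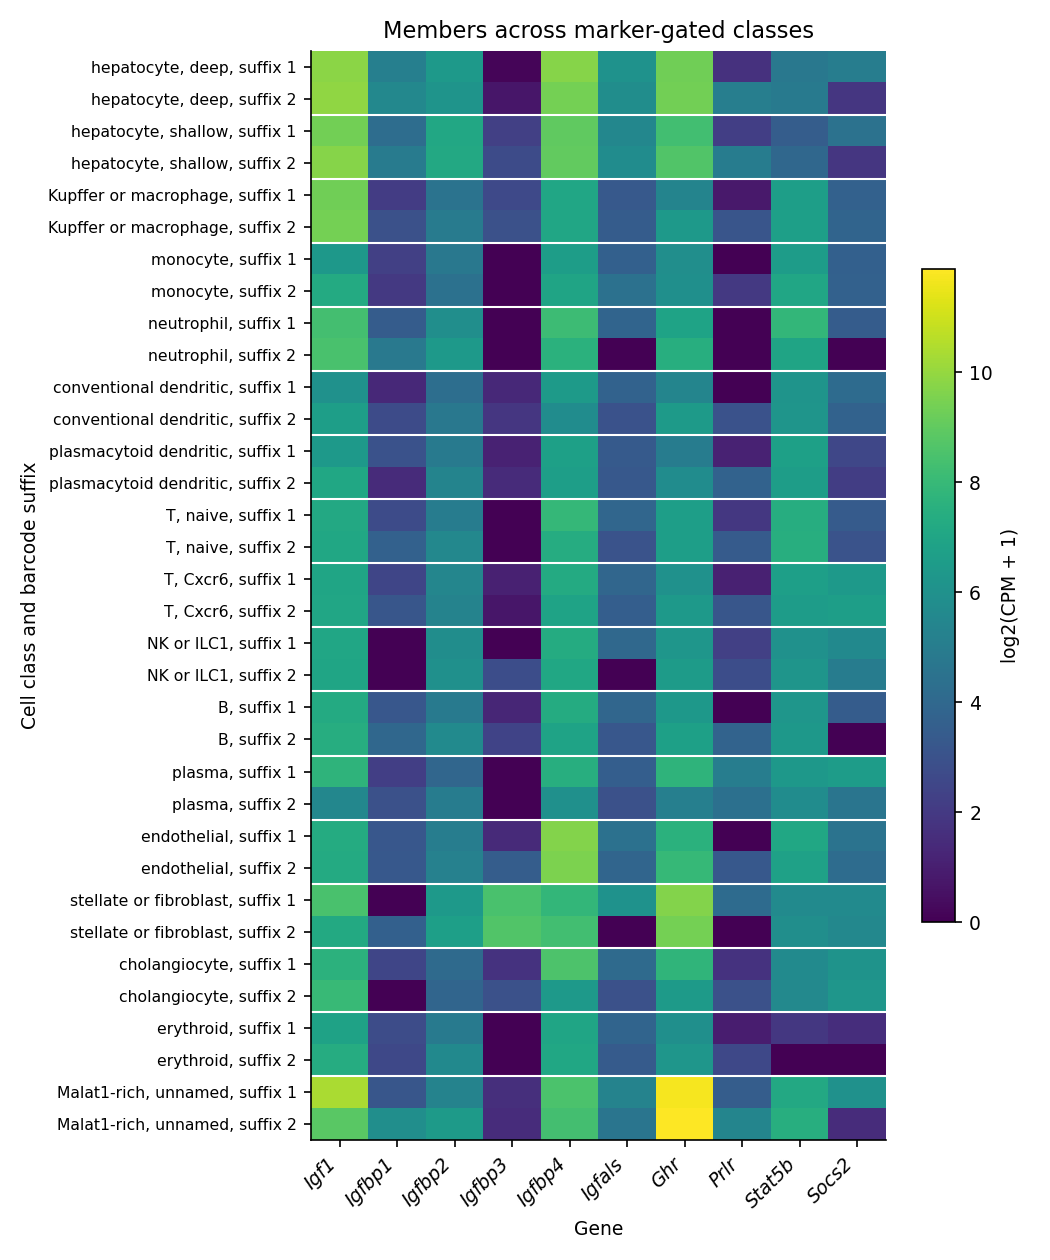
Level of each of the 10 genes as log2(CPM + 1) in 17 cell classes, with the libraries of suffix 1 and suffix 2 on neighbouring lines and colours from dark (0) to yellow for higher levels. Igf1 is bright in hepatocyte-like and in Kupffer or macrophage-like cells, Igfbp4 in hepatocyte-like and endothelial-like cells, Igfbp3 is brightest in stellate or fibroblast-like cells, and Ghr is brightest in Malat1-rich barcodes.

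Ghr (chr15:3317760-3583492, - strand) encodes the growth hormone receptor. It was at 632 CPM (619.6 to 645) with suffix 1 against 650.0 CPM (632 to 668) with suffix 2 in deep hepatocyte-like cells, with overlapping intervals and a ratio of 0.973 (0.940 to 1.01). Detection was also close, in 94.4% and 97.1% of cells. T-like and B-like cells held 76.1 and 84.2 CPM, and deep hepatocyte-like cells were 8.31 times (7.35 to 9.42) and 7.72 times (6.77 to 8.83) above them. In shallow droplets the libraries lay further apart, with Ghr at 310.1 CPM with suffix 1 against 403 CPM with suffix 2 and Igf1 at 645 against 843 CPM, ratios of 0.770 (0.729 to 0.813) and 0.765 (0.737 to 0.794). Per barcode the shallow Ghr value with suffix 1 was 0.434 UMIs (0.420 to 0.448), whose interval overlapped that of T-like and B-like cells (0.341 to 0.435). With suffix 2 it was 0.596 UMIs (0.570 to 0.623) against 0.383 (0.336 to 0.435), with intervals apart.

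Outside hepatocyte-like cells Ghr was found in stellate or fibroblast-like cells, where 49 and 58 UMIs gave 812 CPM (600.5 to 1073) and 668 CPM (507 to 863). That was 10.7 times (7.69 to 14.5) and 7.93 times (5.84 to 10.6) the T-like and B-like level, and after thinning to 1000 UMIs 52.4% and 45% of these cells held a Ghr UMI, against 7.21% and 7.93% of T-like cells. Endothelial-like cells held 191 and 244 CPM, 2.51 times (2.00 to 3.15) and 2.90 times (2.34 to 3.59) the T-like and B-like level. In Kupffer or macrophage-like cells Ghr was 40.1 CPM (32.8 to 48.4) with suffix 1 against 81.5 CPM (71.9 to 92.1) with suffix 2. The level with suffix 2 was 2.04 times higher (1.62 to 2.57), and Ghr was the only one of 7 members tested in this class that was called between the libraries, beside 0.583% of all genes called higher with suffix 2 and 1.23% higher with suffix 1. Prlr, with 2 and 25 UMIs, was not tested there and read 0.749 and 7.90 CPM. In CPM neither Ghr value stood above the T-like and B-like level of its own library. Per cell the value was 0.381 UMIs (0.312 to 0.460) against 0.386 with suffix 1, and 0.586 (0.517 to 0.662) against 0.383 (0.336 to 0.435) with suffix 2, where the intervals lay apart.

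The highest Ghr level of any class was in barcodes that passed no marker gate and in which Malat1 made up at least 3% of UMIs. These 79 and 118 Malat1-rich barcodes held 3340.0 CPM (3180.4 to 3506) and 3768 CPM (3608 to 3934) of Ghr, or 20.8 and 17.6 UMIs per barcode. Their Ghr level was 5.28 times (5.01 to 5.57) and 5.80 times (5.51 to 6.10) that of deep hepatocyte-like cells, and they held 10.2% and 19.0% of all Ghr UMIs. Stat5b was higher there too, at 142 and 174 CPM, which was 5.38 times (4.11 to 6.96) and 6.01 times (4.68 to 7.66) the deep hepatocyte-like level. Igfbp4 was lower, at 0.435 and 0.476 times. Igf1 went in opposite directions, with 1330.3 CPM with suffix 1 (1.46 times, 1.35 to 1.58) and 462 CPM with suffix 2 (0.475 times, 0.418 to 0.538). Whether intronic reads entered the counts was not given in the sources used here, and Ghr spans 265733 bases, and the part of either in these values was not tested.

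Prlr (chr15:10177238-10349180, + strand, overlapped on the same strand by Gm21973) encodes the prolactin receptor, a cytokine receptor of the same family as Ghr that also signals through STAT5. In deep hepatocyte-like cells it stood at 2.25 CPM (1.55 to 3.16) with suffix 1 against 32.5 CPM (28.6 to 36.8) with suffix 2, from 33 and 255 UMIs. The intervals lay far apart, and the level with suffix 2 was 14.4 times higher (10.0 to 21.4). By share of cells, 4.38% (2.93 to 6.26) held a Prlr UMI with suffix 1 and 35.0% (30.9 to 39.3) with suffix 2, although the cells with suffix 2 were the shallower ones. Of 9911 genes ranked by the ratio with 10 CPM added to both sides, Prlr was 10th from the low end.

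In shallow hepatocyte-like droplets Prlr was 3.64 CPM (2.64 to 4.88) with suffix 1 against 30.4 CPM (25.7 to 35.6) with suffix 2, a ratio of 8.34 (5.93 to 12). Counted per barcode, the shallow droplets with suffix 2 held 0.0449 Prlr UMIs, near the 0.0438 of T-like and B-like cells, so the shallow level did not stand above the free RNA of its library. Across the 5 depth classes with suffix 2 the level lay between 20.1 and 55.6 CPM without a steady trend, and with suffix 1 it never passed 4.24 CPM.

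With suffix 2, T-like and B-like cells also held Prlr, at 9.64 CPM (6.35 to 14.0), and deep hepatocyte-like cells were 3.37 times (2.26 to 5.22) above them. Relative to Alb, the amounts with suffix 2 were alike in the classes compared, with 0.779 Prlr UMIs per 1000 Alb UMIs in deep hepatocyte-like cells, 0.859 in T-like, 0.970 in B-like and 0.849 in Kupffer or macrophage-like cells. In these 3 other classes the ratio of Prlr to Alb was thus near the hepatocyte one. With suffix 1 the deep level of 2.25 CPM was 1.57 times (0.610 to 5.16) the T-like and B-like level of 1.43 CPM, an interval that includes 1. Per barcode it was 0.0516 UMIs (0.0355 to 0.0724) against 0.00725 (0.00235 to 0.0169), with intervals apart, so the reading against free RNA depends on the scale. Plasma-like cells were an exception, with 32.3 CPM (14.8 to 61.3) and 20.2 CPM (7.42 to 44.0) and 4.47 and 4.41 Prlr UMIs per 1000 Alb UMIs, but on 9 and 6 UMIs in 14 and 23 cells. Malat1-rich barcodes, described above for Ghr, were another, with 10.2 CPM (3.30 to 23.7) and 41.7 CPM (26.4 to 62.5) from 5 and 23 UMIs, or 0.811 and 3.02 Prlr UMIs per 1000 Alb UMIs.

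RefSeq windows of 250 bases upstream of annotated starts (GRCm38.p6) were matched for 9 of the 10 members, in 16 windows, and those of Prlr are shown because Prlr was the receptor that differed most between the libraries and because its windows held both cores searched. The STAT5 core TTCNNNGAA, which is its own reverse complement, was present in 7.02% of 32851 windows and the C/EBP core TTGCNNAA, on either strand, in 9.56%. Among the 16 windows 3 held the STAT5 core, 2 of them of Igfals and 1 of Prlr, and 2 held the C/EBP core, both of Prlr. Prlr has 3 windows, at chr15:10176988-10177237, chr15:10223656-10223905 and chr15:10293401-10293650, all on the + strand. Capitals mark the C/EBP core in the first, starting 221 bases before the start site, and the STAT5 core in the second, starting 110 bases before it. The third held a C/EBP core 121 bases before its start. A match is a run of letters, not a measured site, and 3' tags do not tell which start was used.
Prlr window 1: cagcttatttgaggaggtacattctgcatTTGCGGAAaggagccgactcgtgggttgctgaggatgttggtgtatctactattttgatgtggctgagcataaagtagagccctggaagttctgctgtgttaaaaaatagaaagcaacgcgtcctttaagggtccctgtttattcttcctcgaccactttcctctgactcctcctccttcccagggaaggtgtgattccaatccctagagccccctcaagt
Prlr window 2: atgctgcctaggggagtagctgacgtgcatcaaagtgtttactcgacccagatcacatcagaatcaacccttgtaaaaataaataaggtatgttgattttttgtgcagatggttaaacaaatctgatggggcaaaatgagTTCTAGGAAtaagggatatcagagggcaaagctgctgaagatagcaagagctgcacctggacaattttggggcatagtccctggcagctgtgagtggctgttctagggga

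Stat5b (chr11:100780731-100850724, - strand) encodes the transcription factor that carries the growth hormone signal to the nucleus. It was at 26.5 CPM (23.9 to 29.2) with suffix 1 against 28.9 CPM (25.3 to 33.0) with suffix 2 in deep hepatocyte-like cells, with overlapping intervals and a ratio of 0.914 (0.774 to 1.08). The gene was more abundant in immune and endothelial-like cells. Naive T-like cells held 166 CPM (138 to 199) and 174 CPM (136 to 219). The level was 99.96 and 105 CPM in Kupffer or macrophage-like cells, 136 and 111 CPM in endothelial-like cells and 235 and 122 CPM in neutrophil-like cells. T-like cells carrying Cxcr6, the chemokine receptor of liver-resident T cells, were lower than naive ones, at 102 and 94.4 CPM, or 0.616 times (0.485 to 0.783) and 0.543 times (0.407 to 0.729). Deep hepatocyte-like cells were at 0.232 times (0.201 to 0.268) and 0.268 times (0.225 to 0.320) the T-like and B-like level, and erythroid-like cells held 3 Stat5b UMIs with suffix 1 and 0 of 409620 UMIs with suffix 2.

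Socs2 (chr10:95385362-95417180, - strand) encodes the suppressor of cytokine signalling that damps the growth hormone receptor and is itself a STAT5 target. In deep hepatocyte-like cells it was at 31.3 CPM (28.5 to 34.3) with suffix 1 against 2.68 CPM (1.66 to 4.09) with suffix 2, from 459 and 21 UMIs. The level with suffix 1 was 11.7 times higher (7.56 to 19.1), with intervals far apart. A Socs2 UMI was found in 41.7% (37.9 to 45.6) of cells with suffix 1 and 3.68% (2.23 to 5.68) with suffix 2, and after thinning to 1000 UMIs in 2.81% (1.68 to 4.41) and 0.193% (0.0049 to 1.07). In shallow droplets it stood at 21.3 CPM (18.8 to 24.1) and 2.63 CPM (1.40 to 4.50), a ratio of 8.11 (4.66 to 15.4). Socs2 was 15th from the high end among the 9911 genes ranked.

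T-like cells showed no such gap. Socs2 was at 62.5 CPM (53.5 to 72.5) with suffix 1 against 79.5 CPM (68.5 to 91.8) with suffix 2 in all T-like cells, and none of the 7 members tested there was called between the libraries, beside 1.23% of all genes called higher with suffix 1 and 0.639% with suffix 2. Prlr had too few UMIs to be tested there and read 1.80 CPM (0.58 to 4.19) against 9.03 CPM (5.59 to 13.8). The T-like level of Socs2 was 2.00 times (1.67 to 2.38) the deep hepatocyte-like level with suffix 1 and 29.7 times (18.9 to 49.1) with suffix 2, so that T-like cells held 14.7% and 43.6% of all Socs2 UMIs.

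Within T-like cells Socs2 was low in naive cells. Cells with a Cxcr6 UMI (319 and 326) held 83.5 CPM (70.4 to 98.2) and 99.98 CPM (85.1 to 117), and naive cells (129 and 83) 9.79 CPM (3.93 to 20.2) and 7.25 CPM (1.49 to 21.2). The ratio was 8.53 (4.03 to 21.6) with suffix 1 and 13.8 (4.64 to 67.6) with suffix 2. Of the 174 and 185 Socs2 UMIs of T-like cells, 145 and 161 were in cells with a Cxcr6 UMI, 7 and 3 in naive cells and the remainder in T-like cells of neither kind, whose level was not compared. B-like cells held 9.88 CPM with suffix 1 and 0 of 475101 UMIs with suffix 2, which allows up to 6.31 CPM. Socs2 was the only one of 6 members tested that was called between Cxcr6 T-like and B-like cells in either library, beside 10.9% and 11.2% of all genes called higher and 7.73% and 7.98% lower. Between the libraries none of 6 members was called in Cxcr6 T-like cells, beside 1.39% and 0.676%. Prlr, not tested there, read 1.15 and 8.07 CPM from 2 and 13 UMIs. After thinning to 1000 UMIs 9.09% and 8.28% of Cxcr6 T-like cells held a Socs2 UMI, and 0.614% and 0% of B-like cells, the latter being 0 of 137 with a limit of 2.19%. Median depths were 4685 and 4267.5 UMIs for Cxcr6 T-like and 3596 and 2977 for B-like cells.

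Cholangiocyte-like cells were also rich in Socs2, with 66.8 CPM (44.8 to 96.0) and 74.9 CPM (37.4 to 134) from 29 and 11 UMIs, and here too the intervals overlapped between libraries. Plasma-like cells held 93.3 CPM (61.0 to 137) and 23.6 CPM (9.48 to 48.6), from 26 and 7 UMIs, and their intervals did not overlap. Ghr (212 and 33.7 CPM) and Igf1 (208 and 43.8 CPM) were also higher with suffix 1 in plasma-like cells. Whether these barcodes held RNA of other cells was not tested. In deep hepatocyte-like cells 7 of the 8 cholangiocyte markers were at a higher CPM with suffix 1, and their summed level was 214 and 209 CPM, most of it Krt8, against 2872 and 4196 CPM in cholangiocyte-like cells. Cftr was at 0 with suffix 2. The 8 T markers summed to 13.6 and 16.8 CPM there, against 4170 and 4597 CPM in T-like cells, with 2 of 8 higher with suffix 1. The part of these transcripts in the Socs2 gap was not tested.

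**Figure D3:**
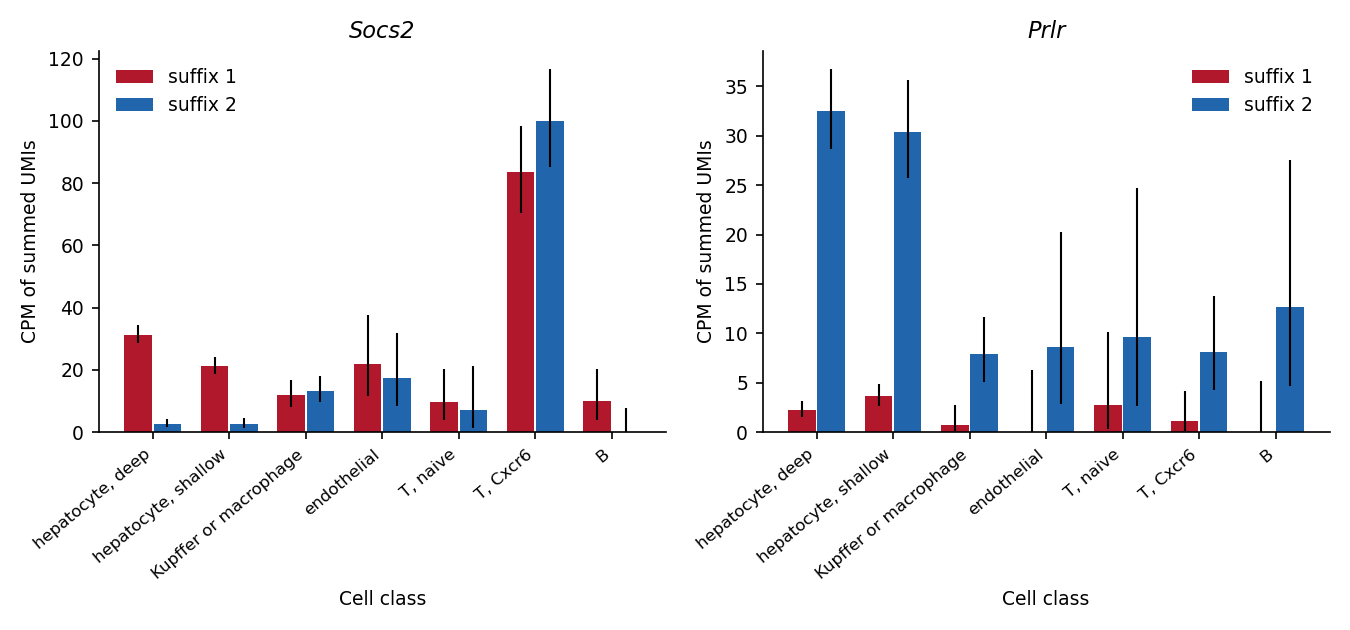
Socs2 (left) and Prlr (right) in 7 cell classes, as bars of CPM from 0 with exact Poisson 95% intervals, for suffix 1 in red and suffix 2 in blue. The libraries part in hepatocyte-like classes for both genes, while for Socs2 their intervals overlap in Kupffer or macrophage-like, endothelial-like and both T-like classes. For Prlr the intervals also lie apart in Kupffer or macrophage-like and Cxcr6 T-like cells.

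Over the whole list, 2 of the 9 members with enough UMIs were called between the libraries in deep hepatocyte-like cells. Socs2 was called higher with suffix 1, 1 of 9, beside 3.19% of 9911 genes tested, and Prlr was called higher with suffix 2, 1 of 9, beside 2.24%. The median log2 ratio of suffix 1 to suffix 2 was -0.04 over the members and 0.03 over all genes tested, with 10 CPM added. Igf1, Ghr and Stat5b differed by under 1.1-fold, and the ratios of these 3 genes and of Igfbp2 and Igfals took both directions under other filters and scalings. Clustered by expression instead of gated, the deepest hepatocyte-like cells fell into different clusters by library, 1 with 509 cells of suffix 1 and 1 of suffix 2, and another with 11 and 386. The largest clusters of shallow ones were likewise split, at 3520 and 101 and at 177 and 2628 cells. With a mitochondrial limit of 10%, which left 158 and 162 deep cells, Prlr read 3.64 and 19.1 CPM and was no longer called. Its log2 ratio of -2.40 was still past 2-fold. A call also needs at least 50 UMIs over both sides, so the lost call does not show that the Prlr gap closed. Of all genes called, 58.7% were higher with suffix 1, against 79.4% under that limit, 78.6% with no limit and 87.8% after the T-like and B-like UMIs were subtracted. In shallow droplets all 10 members had enough UMIs, and Socs2 and Prlr were the members called, 1 of 10 in each direction, beside 2.95% and 1.95% of genes. Those droplets held 43.8 and 55.3 Alb UMIs per barcode, near the 50.4 and 49.7 of T-like and B-like cells. The shallow calls were thus not set apart from differences in free RNA.

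**Figure D4:**
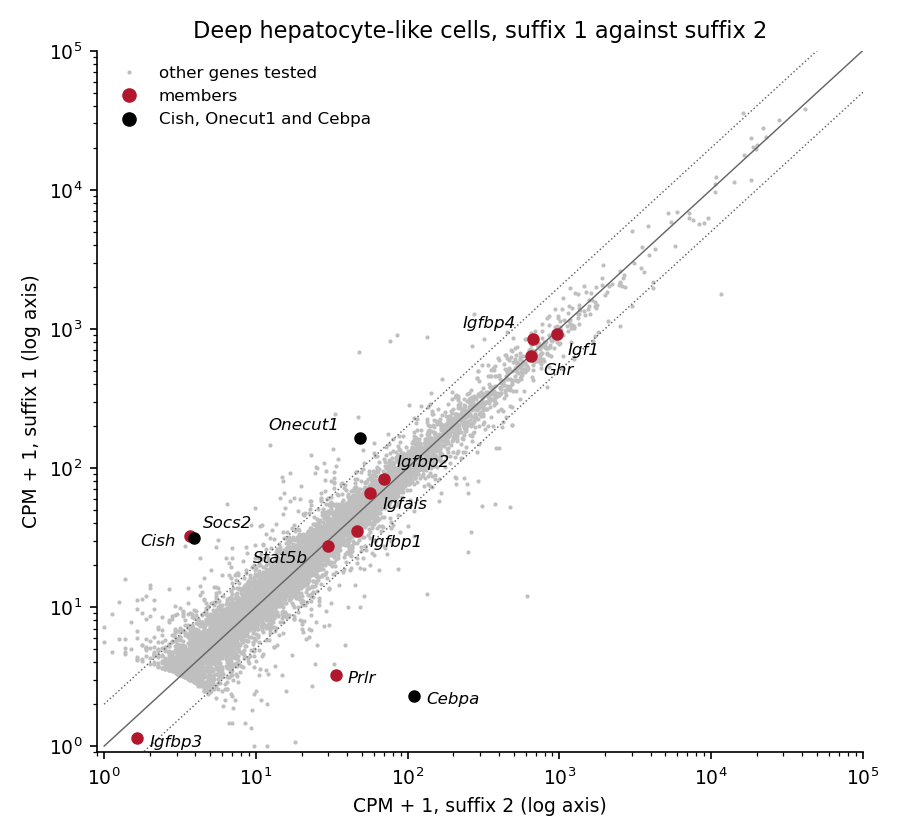
CPM + 1 in deep hepatocyte-like cells with suffix 2 (horizontal) and suffix 1 (vertical), both on log axes, for 9911 genes tested (grey), the 10 members (red) and Cish, Onecut1 and Cebpa (black), with equality as a solid line and 2-fold as dotted lines. Socs2 and Cish lie together on the suffix 1 side, Prlr and Cebpa lie on the suffix 2 side, Igfbp3 lies near 0, and the other members lie within the 2-fold lines.

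Against T-like and B-like cells, the members were mostly hepatocyte genes. With suffix 1, 6 of 8 members tested (Igf1, Igfbp1, Igfbp2, Igfbp4, Igfals and Ghr) were called higher in deep hepatocyte-like cells, beside 20% of genes, and Stat5b was called lower, beside 42.3%. With suffix 2, 6 of 9 (Igf1, Igfbp1, Igfbp4, Igfals, Ghr and Prlr) were called higher, beside 20.3%, and Socs2 and Stat5b lower, beside 43.6%. The median log2 ratio over the members tested was 1.57 and 1.503, against -0.39 and -0.45 over all genes. In endothelial-like cells Igfbp4 and Ghr were called higher, 2 of 7 and 2 of 6, beside 17.5% and 18.3%, and Socs2 lower, beside 15.9% and 17.0%. Between the libraries none of 4 members tested was called in endothelial-like cells, beside 0.871% and 1.12%. In stellate or fibroblast-like cells Ghr was called higher in both libraries, with Igf1 in addition with suffix 1 and Igfbp4 with suffix 2, 2 of 7 and 2 of 6, beside 8.10% and 8.21%, and no member was called lower, beside 9.36% and 14.0%.

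Other genes of the pathway were read from a list of 30, of which 20 had enough UMIs in deep hepatocyte-like cells. Of these 2 were called higher with suffix 1 and 1 higher with suffix 2, beside 3.19% and 2.24% of all genes, and the median log2 ratio was 0.10, beside 0.03 over all genes. Cish, the founding SOCS-family feedback gene and a STAT5 target like Socs2, was at 30.3 CPM (27.5 to 33.2) with suffix 1 against 2.93 CPM (1.86 to 4.40) with suffix 2. Its ratio of 10.3 (6.79 to 16.5) lay inside the interval of the Socs2 ratio. Onecut1, a liver transcription factor that growth hormone acts on, was at 163 and 47.9 CPM, a ratio of 3.40 (3.05 to 3.80). Igfbp5, another binding protein, was the gene higher with suffix 2, at 2.05 and 4.59 CPM, or 2.24 times. Socs3, a feedback gene downstream of other cytokines, had 43 and 5 UMIs and was under the limit of 50.

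The kinase and the second STAT5 gene did not part in this way. Jak2 was at 12.3 CPM (10.6 to 14.3) and 11.0 CPM (8.77 to 13.5), and Stat5a at 3.34 and 2.93 CPM, a ratio of 1.14 (0.681 to 1.96). Bcl6, a repressor that opposes STAT5, was at 16.1 and 26.9 CPM, a ratio of 0.598 (0.495 to 0.724), under 2-fold. Igf1r, the receptor for IGF1, was near absent from deep hepatocyte-like cells, with 10 and 18 UMIs (0.68 and 2.29 CPM), and was found in endothelial-like cells, which held 354 CPM (308 to 405) and 324 CPM (279 to 374), and in stellate or fibroblast-like cells at 364 and 299 CPM. T-like and B-like cells held 39.2 and 29.6 CPM of Igf1r, above the deep hepatocyte-like level. Igf2, the fetal hormone, had 0 UMIs in deep hepatocyte-like cells of both libraries.

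Growth hormone dependent hepatocyte targets, many of them sex-biased, were read from a list of 20, of which 12 had enough UMIs. The list was split, with 4 called higher with suffix 1 and 5 higher with suffix 2, beside the same 3.19% and 2.24% of all genes, and its median log2 ratio was -0.39. Cyp7b1, an oxysterol hydroxylase, was at 909.6 and 83.8 CPM, a ratio of 10.9 (10.0 to 11.8), and Selenbp2, a selenium-binding protein, at 869.6 and 134 CPM, a ratio of 6.48 (6.08 to 6.90). Mup20 and Cyp2d9 were also higher with suffix 1, at 35406 against 16339 CPM and 944 against 454 CPM. Elovl3, a fatty acid elongase, was lower with suffix 1, at 4.36 and 37.7 CPM, and Mup3, another major urinary protein, stood at 1781 and 11566 CPM. Serpina1e, Cyp2a4 and Cyp17a1 were the others higher with suffix 2. Cyp2a4, which is female-biased in mouse liver, had 1 UMI with suffix 1 and 134 with suffix 2. Genes of the Mup, Serpina1 and Cyp2 families have near-identical copies that can share reads, so their single values are uncertain. Genes known as male-biased, among them Mup20 and Cyp2d9 on one side and Mup3 and Elovl3 on the other, were thus found on both sides of the comparison.

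Several members differed between depth classes, and other measures moved with depth. The median mitochondrial share was 1.64% and 3.42% in shallow hepatocyte-like droplets against 15.9% and 15.5% in deep cells, and Malat1 went from 413 to 2104.5 CPM with suffix 1 and from 447 to 1425 CPM with suffix 2 between the shallowest and the deepest class. Their part in these differences was not tested. Counted per barcode, Igf1 gave 0.628 UMIs with suffix 1 and 0.695 with suffix 2 in hepatocyte-like droplets of 500 to 1000 UMIs, against 0.696 and 0.630 UMIs in a T-like or B-like cell, so it was lower with suffix 1 and slightly higher with suffix 2. At 20000 UMIs and more it gave 30.2 and 27.3 UMIs per cell. In CPM the course was uneven, from 769 down to 573 and up to 934 CPM with suffix 1, and from 946 down to 816 and up to 1014 CPM with suffix 2. Ghr went from 334 to 665 CPM and from 419.7 to 726 CPM between the shallowest and the deepest class, but the shallowest held 0.273 and 0.308 Ghr UMIs per barcode, below the 0.386 and 0.383 of T-like and B-like cells. Stat5b went from 7.91 to 27.2 CPM and from 10.9 to 29.998 CPM. Socs2 with suffix 1 went from 15.8 to 32.0 CPM.

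**Figure D5:**
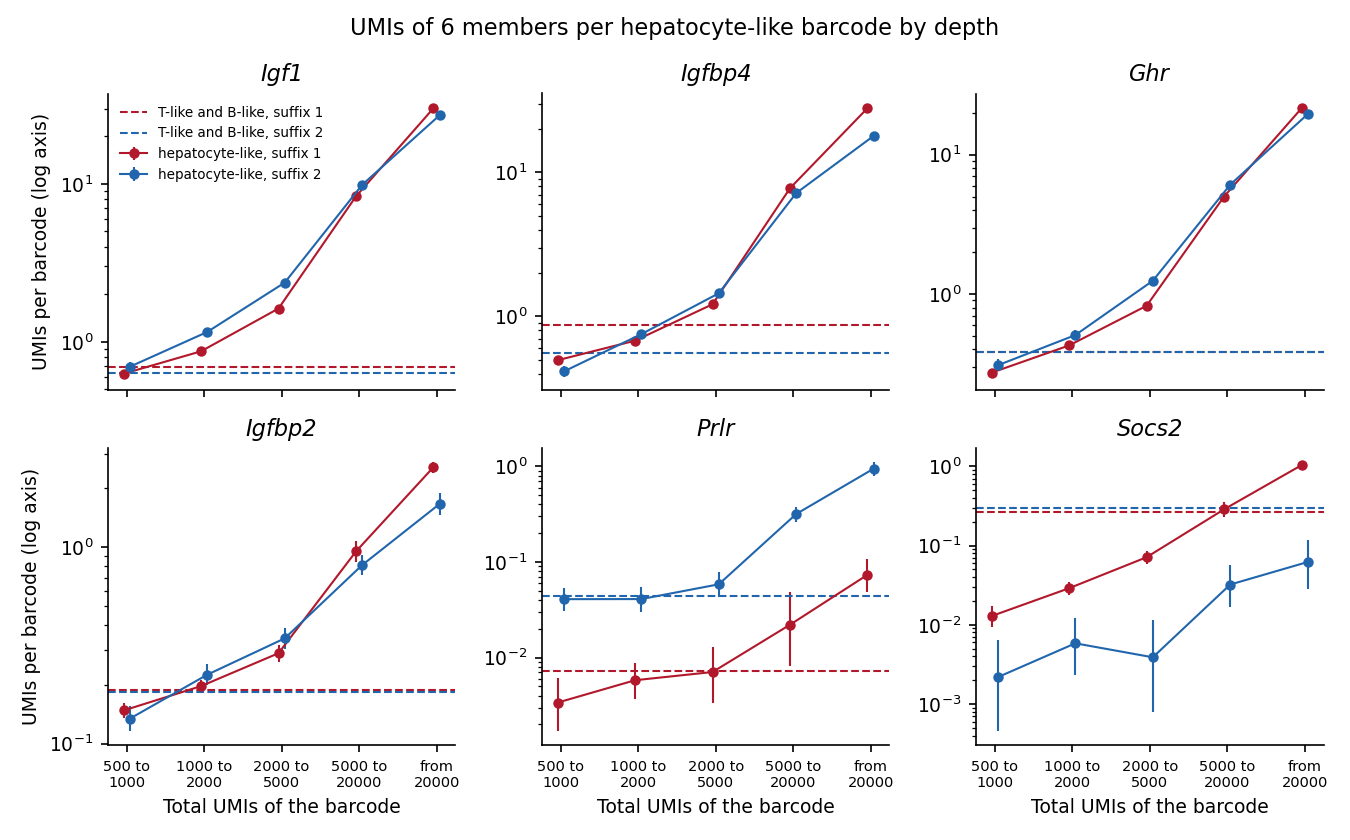
UMIs per barcode of Igf1, Igfbp4, Ghr, Igfbp2, Prlr and Socs2 on a log axis in 5 depth classes of hepatocyte-like droplets, for suffix 1 in red and suffix 2 in blue, with the T-like and B-like level dashed. Igf1 starts near that level in the shallowest class and passes 27 UMIs per cell in the deepest, and the libraries stay apart at every depth for Prlr and Socs2.

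Position along the liver lobule was approached with a score of 8 pericentral and 8 periportal genes, which ranks deep hepatocyte-like cells and is a range, not a cell type. Between the ends of the range (the outer parts of 3) Igfbp2 differed in both libraries, with 129 CPM at the pericentral and 63.4 CPM at the periportal end with suffix 1 and 113 and 46.7 CPM with suffix 2, ratios of 2.03 (1.77 to 2.33) and 2.41 (1.95 to 2.998). The pericentral ends were shallower, at medians of 13071 and 8290 UMIs against 29910 and 17082, while between the 2 depth classes of deep cells (5000 to 20000 UMIs, and more) Igfbp2 went from 93.4 to 79.1 CPM and from 76.6 to 61.8 CPM. The ends were not compared at matched depth. Median mitochondrial shares were 14.2% and 9.63% at the pericentral and 15.9% and 16.2% at the periportal ends, and were not matched either. Igf1 was lower at the pericentral end, at 0.951 times (0.910 to 0.994) and 0.794 times (0.748 to 0.844). With suffix 2 the intervals of Igfbp4 (0.861), Ghr (0.831) and Igfals (0.707) also lay below 1, which they did not with suffix 1. Socs2 with suffix 2 was at 5.82 and 1.26 CPM, a ratio of 4.61 (1.37 to 19.9), but on 11 and 4 UMIs, and with suffix 1 its ratio was 0.840 (0.654 to 1.07). In the 64 and 51 cells richest in Glul, the glutamine synthetase gene of the innermost pericentral cells, Igfbp2 was at 0.982 and 1.18 times the rest, with intervals that included 1. Igf1 was slightly lower in those Glul-rich cells, at 0.819 times (0.754 to 0.889) and 0.786 times (0.717 to 0.861). Igfbp4 was at 0.761 times (0.695 to 0.831) and 0.863 times (0.775 to 0.958). The Glul-rich cells were shallower, at medians of 6652 and 9675 UMIs against 25282 and 13272 in the rest, and with suffix 1 their median mitochondrial share was 1.71% against 16.2%, so these differences cannot be told apart from those of depth and mitochondrial share. Ghr with suffix 1 was at 0.859 times (0.779 to 0.946) and Prlr with suffix 2 at 0.503 times (0.248 to 0.916) in the Glul-rich cells, while in the other library their intervals included 1. Igfbp1 and Stat5b showed no difference beyond their intervals between the ends of the range or with Glul.

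Likeness of pattern was described by Pearson's r of log2(CPM + 10) over 30 profiles, made of 15 classes in each of the libraries, among 12481 genes. The profiles share the libraries, the free RNA and the class depths, and r is given as a description. Igf1 was closest to Hebp1 (0.858), Slc7a2 and Ehhadh, Igfals to Hsd3b3 (0.894), Igfbp1 to Serpina3m (0.883) and Igfbp2 to C8g (0.925). Igfbp4 was closest to Selenop (0.924) and Ghr to Gpam (0.878). Igfbp3 was closest to Col5a1 (0.984), Daam2 and Bmp5, and Stat5b to Nsd3 (0.952), Jmjd1c and Ptbp3. Socs2 was closest to Airn (0.830), Tox and Znrf3. Prlr had no close match, with a highest r of 0.652 for Yif1a. Among pairs of members Igfbp4 and Ghr were most alike (0.784), and Igfbp1 and Socs2 least (-0.393).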

How the data were processed

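UMI counts per gene and barcode were deposited by the authors as 1 matrix, which the file headers credit to Cell Ranger 7.1.0, and the submitters' processing notes also name mm10, STAR 2.7.2a and bcl2fastq 2.20.0. The annotation, cell calling and intron setting were not given in the sources used here. All sample columns were used (0 unused). The members, the gene lists and the alternatives were chosen with earlier results of these data known.

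Barcodes were kept with at least 500 UMIs, 200 genes and at most 25% mitochondrial UMIs. A class needed 3 of its markers and 1.5 marker UMIs per 1000 (erythroid-like 10%, hepatocyte-like 8% of UMIs). Barcodes in which another class reached over 50% of the leading one's marker share, or hepatocyte-like ones that passed another gate (419 and 418 in all), were set aside as mixed. No doublet caller was run, so doublets may remain. Naive T-like cells had at least 2 naive markers and no Cxcr6. The gate limits and the 3% Malat1 limit were set after seeing the data.

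Summed counts were scaled to CPM. Intervals are exact at 95%, and a count of 0 allows 3 UMIs. On simulated counts for 9851 genes of the comparison between suffixes in deep hepatocyte-like cells, 100 of 100 genes changed 3-fold and 100 of 100 changed 6-fold were called, with 12 false calls. Gene positions came from GENCODE M21 on GRCm38 (32235 of 32285 IDs found). Python 3.11.15, numpy 2.4.6, scipy 1.17.1, scikit-learn 1.9.0, scanpy 1.11.5, igraph 0.11.9 and matplotlib 3.10.9 were used. The genes named are the 10 members, the genes of the pathway list of 30 and the target list of 20, the targeted gene, the zonation and marker genes, and the 3 genes most alike in pattern. Alternatives were other mitochondrial and depth limits, other scalings, subtraction of the T-like and B-like or the erythroid-like level, Leiden clusters, a stricter gate, other folds and other thinning depths.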

Additional observations from a re-analysis of the deposited data

Results flagged for a closer look

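Hepatocyte-like droplets with over 25% mitochondrial UMIs, 4224 with suffix 1 and 7112 with suffix 2, were left out of the classes compared above and entered only where the mitochondrial limit was raised or dropped. The 10 genes were found in them above the floor of 3 UMIs, 0.339 CPM with suffix 1 and 0.175 CPM with suffix 2. With suffix 1 the levels were 480.1 CPM for Igf1, 21.1 CPM for Igfbp1, 132 CPM for Igfbp2, 2.94 CPM for Igfbp3, 459.7 CPM for Igfbp4, 54.9 CPM for Igfals, 319.8 CPM for Ghr, 3.50 CPM for Prlr and 9.82 CPM for each of Socs2 and Stat5b. With suffix 2 they were 395 CPM for Igf1, 24.0 CPM for Igfbp1, 137 CPM for Igfbp2, 3.50 CPM for Igfbp3, 298 CPM for Igfbp4, 46.7 CPM for Igfals, 252 CPM for Ghr, 28.7 CPM for Prlr, 0.292 CPM for Socs2 and 5.84 CPM for Stat5b. The order of the libraries for Socs2 and Prlr was the same in these droplets as in the kept ones. With mitochondrial UMIs left out of the total, Igfbp2 was at 239 and 285 CPM in these droplets and at 119 and 111 CPM in the kept ones, and Socs2 at 17.8 and 0.61 CPM against 29.9 and 2.99 CPM. The part of RNA quality in these levels was not tested.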

How the results depend on the processing

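Of 72 counts of members under an alternative, 69 stayed within 1.5 times the reported one. With a mitochondrial limit of 10%, which left 158 and 162 deep cells, 0 members rather than 1 were called higher with suffix 2. Prlr then read 3.64 and 19.1 CPM, a log2 ratio of -2.40, which is still past 2-fold. A call also needs at least 50 UMIs over both sides, so the lost call does not show that the Prlr gap closed. With the T-like and B-like UMIs per droplet subtracted, 2 members (Socs2 and Stat5b) rather than 1 were called lower than T-like and B-like cells with suffix 1. Past 4-fold, 1 member (Socs2) rather than 2 was called lower with suffix 2. The log2 ratio of suffix 1 to suffix 2 ranged from 3.28 to 4.04 for Socs2 over 11 settings, from -3.94 to -2.40 for Prlr over 12, from -0.72 to -0.18 for Igfbp1 and from 0.13 to 0.58 for Igfbp4. It took both signs for Igf1 (-0.19 to 0.22), Igfbp2 (-0.36 to 0.48), Igfals (-0.06 to 0.27), Ghr (-0.10 to 0.22) and Stat5b (-0.18 to 0.41), so no direction is given for these 5 genes across settings. Under the T-like and B-like subtraction no ratio could be computed for Socs2 or Stat5b, the deep Stat5b level falling to 1.28 and 0 CPM and the Socs2 level to 19.8 and 0 CPM. For these genes the subtracted level was not free RNA alone. T-like and B-like cells held 0.577 and 0.490 Stat5b UMIs each, against 0.0139 and 0 in erythroid-like cells. For Socs2 they held 0.262 and 0.300, against 0.00926 and 0. The causes of these shifts between settings were not tested. The median log2 ratio of all genes was 0.03 as reported, 0.17 at the 10% limit, 0.18 with no mitochondrial limit and 0.10 with the subtraction, and the share of calls that were higher with suffix 1 was 58.7%, 79.4%, 78.6% and 87.8%, from 316, 409, 649 and 1506 genes higher with suffix 1 and 222, 106, 177 and 209 higher with suffix 2. Subtraction of the erythroid-like level was added after seeing the data and left every count of members within 1.5 times. Of other values, 119 moved by more than their interval and 251 did not, and none of the called ratios changed sign. Leiden clusters gave no stellate or fibroblast-like class, so Igfbp3 could not be read there under that alternative. No paired analysis was possible because the columns carry no replicate numbers and no test was run, and no library could be left out with 1 per suffix. Depth limits the stellate or fibroblast-like values, on at most 58 UMIs of a member in a library, and Prlr with suffix 1.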
